A study of Mus musculus and Homo sapiens with 28 samples.

Results

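The ATR-CHK1 replication checkpoint was followed in transcripts through 10 genes: Atr, Atrip, Etaa1, Topbp1, Rad17, Clspn, Timeless, Chek1, Wee1 and Cdc25a. They were chosen by name, with earlier results of these data known, as a sensor kinase, its partners and its outputs. They are 10 of 46078 rows of the mouse table and 10 of 56269 rows of the human table. RNA was sequenced from 24 libraries of subcutaneous tumours of Renca, a mouse renal carcinoma line, and from 4 libraries of 786-O, a human cell line established from a clear cell carcinoma of the kidney.

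By their labels, 7 mouse libraries were WT untreated and 6 were WT VE822. Another 6 were SETD2 KD untreated, and 5 were SETD2 KD VE822. VE822 is an inhibitor of ATR itself and was gavaged at 60 mg/kg on 5 days a week, once the tumours, implanted in Matrigel, could be felt. SETD2 KD stands for a knockdown of Setd2, a histone methyltransferase gene. The knockdown construct, the number of clones, the age, sex and strain of the mice and the time of collection were not given in the sources used here. 786-O cells, with the genotype label WT, were left untreated (n = 2) or held for 48 h with 25 nM of an inhibitor of CHK1 (n = 2), in separate experiments numbered 1 and 2. The sample labels call that compound LY2606368 and the treatment protocol LY2603618, so it is written LY here. Whether mouse libraries of a group came from separate animals is not stated, so their p-values measure the spread between these libraries only, which may be technical. The human p-values rest on 2 libraries per group, from the separate experiments named above.

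When a replication fork stalls, single-stranded DNA coated by RPA recruits the kinase ATR through its partner ATRIP. TOPBP1, brought by the RAD17-loaded clamp, and ETAA1, which binds RPA directly, switch ATR on. CLSPN and TIMELESS, which travel with the fork, then help ATR to phosphorylate CHK1. CHK1, encoded by Chek1, marks the phosphatase CDC25A for destruction, and WEE1 puts an inhibitory phosphate on the cyclin-dependent kinases that CDC25A would remove. Much of this control acts on proteins, and only transcripts were measured here.

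The promoter stretches below are shown because Cdc25a and Chek1 are the mouse members whose transcripts passed a test, and because Clspn and Topbp1 hold, with Cdc25a, a letter run bound by E2F, the transcription factor family of the G1/S transition. The windows are from RefSeq on GRCm38.p6 and were found for 9 of the 10 members (Wee1 was not in the table). Each window spans 250 bases before to 50 bases after the RefSeq start site, which is not always the start of the gene span given below. The Timeless window (chr10:128237816-128238115) lies wholly within its gene span, which starts at 128232065. The Chek1 window also lies wholly within its span, which ends, on the minus strand, at 36727065. For Cdc25a (chr9:109875329-109875578, plus strand) and Chek1 (chr9:36726659-36726908, minus strand) the 250 bases before the start are printed. For Clspn (chr4:126556990-126557019, plus strand) and Topbp1 (chr9:103305187-103305216, plus strand) 30 bases around the match are printed. Capitals mark a match to TTTCGCGC or TTTGGCGC on either strand.
Cdc25a: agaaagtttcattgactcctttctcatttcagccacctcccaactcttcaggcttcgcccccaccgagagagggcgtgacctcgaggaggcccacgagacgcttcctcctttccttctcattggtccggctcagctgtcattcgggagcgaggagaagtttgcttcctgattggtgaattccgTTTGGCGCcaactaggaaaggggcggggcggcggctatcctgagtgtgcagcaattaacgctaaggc
Chek1: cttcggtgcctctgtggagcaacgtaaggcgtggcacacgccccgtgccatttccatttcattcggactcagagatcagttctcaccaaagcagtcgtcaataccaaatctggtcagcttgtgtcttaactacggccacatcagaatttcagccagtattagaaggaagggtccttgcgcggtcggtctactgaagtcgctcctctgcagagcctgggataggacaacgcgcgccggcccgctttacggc
Clspn: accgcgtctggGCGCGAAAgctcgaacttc
Topbp1: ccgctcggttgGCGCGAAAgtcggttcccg
TTTGGCGC lay in the Cdc25a window only, starting at position -67 from the start site, and 0.514% of 32851 windows held it. TTTCGCGC lay on the opposite strand of the Topbp1 and Clspn windows. Counted on either strand it was in 0.323% of all windows, and either run was in 0.813%. The Chek1 stretch has no capitals because neither run occurs in it. The 50 bases after the Chek1 start, not printed, hold TTTGGCGG, which differs from TTTGGCGC in its last letter and was not searched for. TTTGAA, the core of the cell cycle element called CHR, was in none of the 9 windows and in 17.9% of all. The search was for exact letters, which do not overlap between these motifs, so near matches were missed. A match is no evidence of binding, and the lack of a match does not show that a promoter is unbound.

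Mouse values are regularised log values (rlog), on a log2 scale that draws noisy genes toward their mean, and a difference in rlog understates the change of weakly expressed genes. Levels are not compared between genes, since rlog carries no correction for gene length. All 24 mouse libraries were fitted together with limma over 15916 genes with a mean rlog of at least 3, and a gene is said to rise or fall where its p, adjusted by Benjamini and Hochberg over all genes tested, was under 0.05. Of the 10 members 9 passed that minimum and Atrip did not. In the human table all 10 were tested among 29353 genes, and human levels are also given as whole read counts recovered from the deposited values, or as those counts divided by the library's size factor (normalised counts).

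Setd2, the targeted gene, differed by treatment label far more than by genotype label. In libraries labelled WT untreated it lay between 10.74 and 10.91 rlog (median 10.79), and in libraries labelled SETD2 KD untreated between 10.70 and 10.88. It was between 9.58 and 10.28 in WT VE822, and the 5 SETD2 KD VE822 libraries had 9.62, 9.42, 9.75, 9.96 and 9.86. The untreated genotype groups overlapped and differed by -0.02 ± 0.09 (SE), while the differences between VE822 and untreated libraries were -0.80 and -1.09. Within the VE822 libraries Setd2 differed between the SETD2 KD and WT labels by -0.31 ± 0.10 (95% interval -0.52 to -0.10), which did not pass over all genes (adjusted p = 0.225). Every mouse genotype comparison below is therefore one of libraries by their label, not of groups shown to differ in Setd2. The VE822 and untreated groups do differ in Setd2, so in every VE822 comparison below, the Cdc25a rise included, the treatment label and the Setd2 level cannot be told apart. Depth of the mouse libraries is unknown, and the human libraries held 20834400 to 23956007 counts. The renal markers Pax8 (10.76 to 11.49 rlog) and Pax2 were present in every mouse library, Cdh6 was below 0, and 786-O cells had reads for all 8 renal markers examined.

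Of the 9 members tested in tumours labelled WT, VE822 was accompanied by a rise of Cdc25a and a fall of Chek1, and the other 7 did not pass the test. The 2 of 9 stand against 34.7% of all genes tested, of which 17.2% rose and 17.5% fell. In tumours labelled SETD2 KD only Cdc25a passed, 1 of 9 members against 22.2% of all genes, with 10.6% higher and 11.6% lower. The median difference of the members was -0.08 in rlog in the first comparison and 0.03 in the second, and that of all genes tested was 0.01 in each. In neither comparison did the members' share exceed that of all genes.

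**Figure D1:**
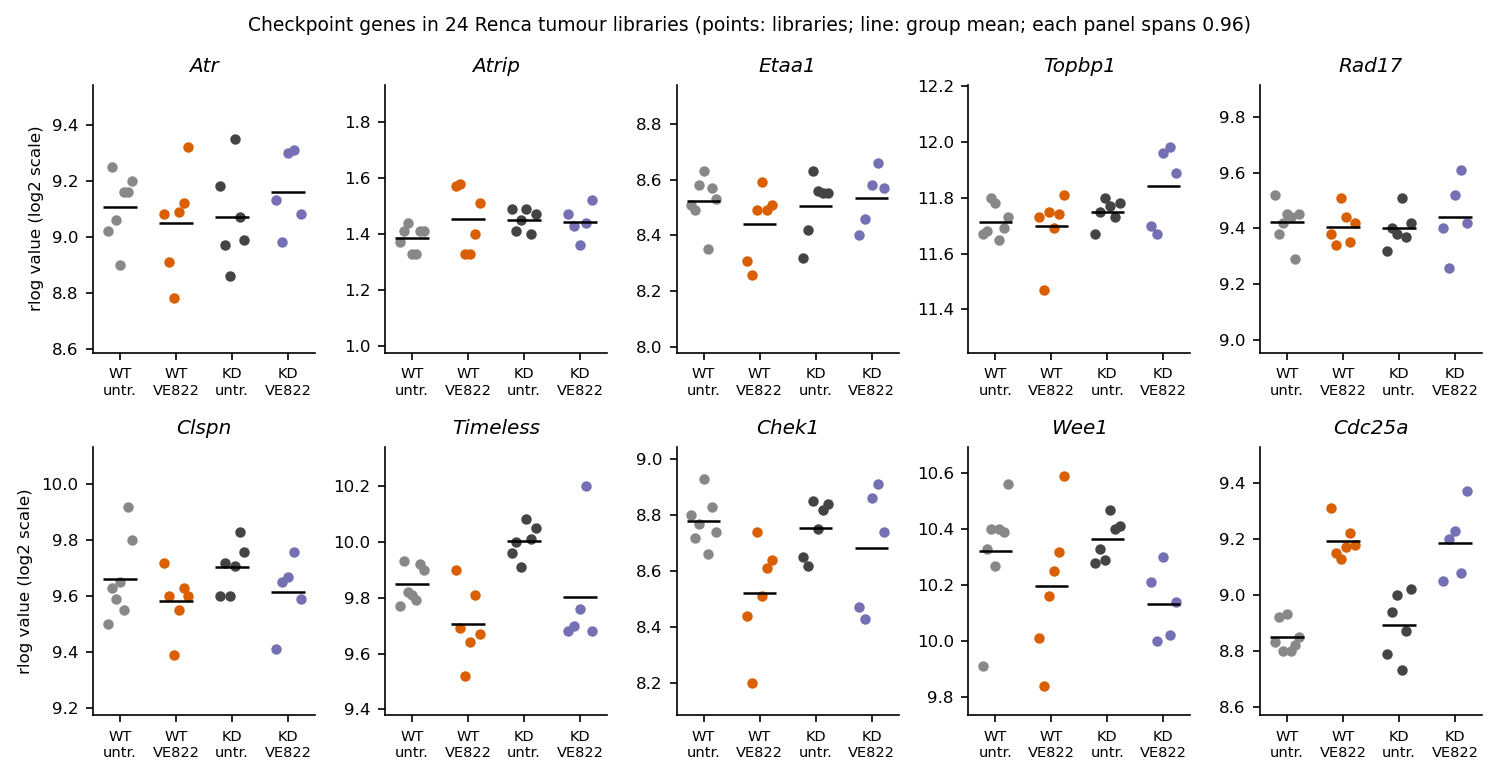
Regularised log values (rlog, log2 scale) of the 10 genes in each of 24 Renca tumour libraries, with the group label on the horizontal axis (untr., untreated; KD, SETD2 KD); points are libraries, lines are group means and every panel spans the same height. The Cdc25a points of both VE822 groups lie wholly above those of the untreated groups, while for every other gene the VE822 and untreated points overlap.

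Cdc25a, whose protein removes the inhibitory phosphate from cyclin-dependent kinases, was the member with the clearest difference in tumours. Its rlog values ran from 8.80 to 8.93 (median 8.83) in WT untreated and from 9.13 to 9.31 (median 9.18) in WT VE822. In SETD2 KD untreated they ran from 8.73 to 9.02 (median 8.91), and the 5 SETD2 KD VE822 libraries had 9.05, 9.20, 9.23, 9.08 and 9.37. Every VE822 library stood above every untreated library of either genotype label, as the plot of values by library shows. Groups that do not overlap in this way were found for 14.1% of all genes in the WT comparison and 11.2% in the SETD2 KD comparison.

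The rise of Cdc25a was 0.34 ± 0.06 in rlog (SE, 95% interval 0.23 to 0.46, adjusted p = 6.21e-05) under the WT label and 0.29 ± 0.06 (0.17 to 0.42, adjusted p = 0.00129) under the SETD2 KD label. The 2 rises differed by -0.05 ± 0.08, with an adjusted p of 0.877 for the interaction of genotype label and VE822. The mean rlog of 6 T cell genes also moved with VE822. It lay between 4.91 and 5.45 in WT untreated and between 5.40 and 6.52 in WT VE822, and between 4.98 and 5.27 against 5.73 and 6.48 in the SETD2 KD groups. With the means of the muscle, fibroblast and T cell lists as covariates the SETD2 KD rise was 0.32 but no longer passed (adjusted p = 0.0868), and the WT rise still did (0.0481). None of the 6 T cell genes was at 0 in every library. The mean of 6 fibroblast genes was higher with VE822 as well, with medians of 10.18 and 11.12 in the untreated and VE822 groups of the WT label and 9.48 and 10.68 under the SETD2 KD label. The mean of 8 renal epithelium genes was lower, with medians of 8.82 and 8.69 and of 8.93 and 8.74 in the same order, and under the SETD2 KD label the groups did not overlap (8.89 to 8.94 against 8.68 to 8.80). The part of these cells in the Cdc25a result was not tested beyond that fit, which did not hold the renal list. In bulk tumour RNA, fewer cells of a type and less RNA per cell cannot be told apart.

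Cdc25a lies on mouse chromosome 9 (GRCm38, 9:109875579-109893895, plus strand), 0.657 Mb from Setd2 (9:110532597-110618633, plus strand), which fell in the same comparisons. Among the 48 other genes tested that start within 2 Mb of Setd2, 11 rose and 4 fell in WT VE822, with a median difference of 0.05, where 17.2% of all genes rose. In SETD2 KD VE822 5 rose and 1 fell, with a median of 0.06, where 10.6% of all genes rose. The Cdc25a rise was exceeded by 5 of these neighbours in the first comparison and 6 in the second. The microRNA gene Mir7089 lies within the Cdc25a gene, and how reads of overlapping genes were assigned was not given in the sources used here.

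**Figure D2:**
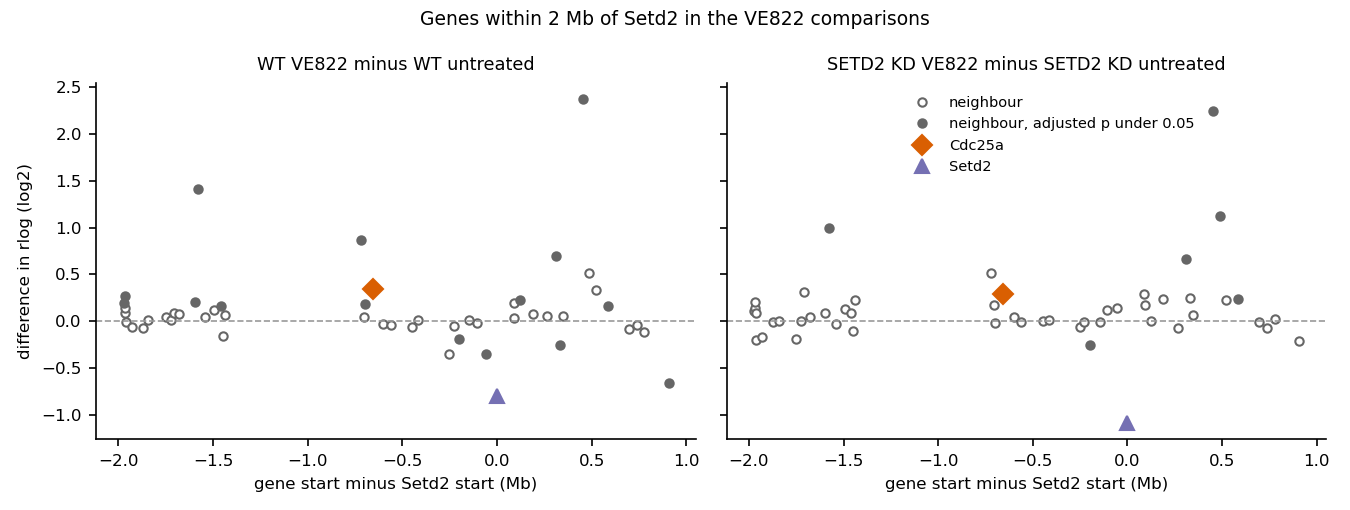
Difference in rlog (log2) between VE822 and untreated libraries for the 48 tested genes that start within 2 Mb of Setd2, plotted by their distance from the Setd2 start in Mb, for the WT label (left) and the SETD2 KD label (right); filled circles passed an adjusted p of 0.05. Cdc25a (diamond) stands at 0.34 and 0.29, above most neighbours, and Setd2 (triangle) at -0.80 and -1.09.

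Chek1 (9:36708482-36727065, minus strand), which encodes the kinase downstream of ATR, was lower in tumours labelled WT VE822. Its rlog values ran from 8.66 to 8.93 (median 8.77) in WT untreated and from 8.20 to 8.74 (median 8.56) in WT VE822, so the groups overlapped. The difference was -0.25 ± 0.08 in rlog (SE, 95% interval -0.43 to -0.08, adjusted p = 0.0221). Under the SETD2 KD label the untreated libraries ran from 8.62 to 8.85, and the 5 VE822 libraries had 8.47, 8.43, 8.86, 8.91 and 8.74, the highest of them above every untreated library. That difference was -0.07 ± 0.09 (adjusted p = 0.615). The 2 differences were not shown to differ, since the interaction was 0.18 ± 0.12 (adjusted p = 0.659).

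The lowest Chek1 values in WT VE822 came from replicate 2 (8.20) and replicate 1 (8.44), which also carried much skeletal muscle RNA. The mean rlog of 10 skeletal muscle genes, which were all detected, ranged from 4.21 to 6.24 in WT untreated and from 4.31 to 9.09 in WT VE822, with 6.79 in replicate 2, 9.09 in replicate 1 and 7.38 in replicate 4. It stayed between 4.01 and 5.29 in the SETD2 KD groups. Without these 3 libraries and WT untreated replicate 4, a set chosen after the data were seen, the Chek1 difference was -0.09 (adjusted p = 0.552). It also lost its call without WT VE822 replicate 2 alone (-0.19, adjusted p = 0.0727) and with the 3 list means as covariates (-0.09, adjusted p = 0.766). The Cdc25a rise without the same 4 libraries was 0.34 (adjusted p = 0.00291). No annotated gene overlaps Chek1.

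**Figure D3:**
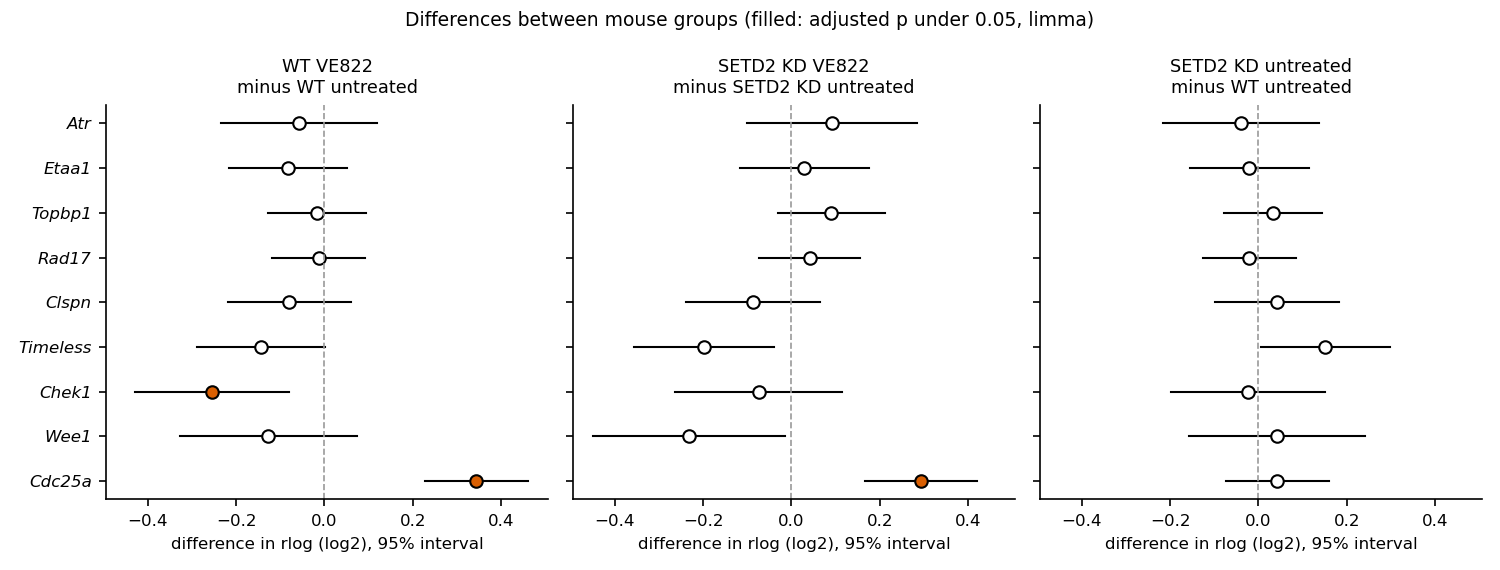
Differences in rlog (log2) with 95% intervals from limma for the 9 members tested, in VE822 against untreated libraries of each genotype label and in SETD2 KD against WT without treatment; filled points passed an adjusted p of 0.05. Cdc25a stands to the right of 0 in both VE822 panels, Chek1 is filled in the WT panel only, and no point is filled in the right panel.

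Wee1 (7:110122046-110143286, plus strand), the kinase gene that opposes Cdc25a, had a lower mean in both VE822 groups without passing the test. Values ran from 9.91 to 10.56 in WT untreated and from 9.84 to 10.59 in WT VE822, and the difference was -0.13 ± 0.10 (adjusted p = 0.326). SETD2 KD untreated libraries ran from 10.28 to 10.47, and the 5 VE822 libraries had 10.21, 10.00, 10.30, 10.02 and 10.14. All but the highest of those 5 lay below the untreated range. The difference was -0.23 ± 0.11 (adjusted p = 0.122), and it passed when the fit held only the 2 groups compared (adjusted p = 0.0234). An antisense transcript overlaps Wee1, and the strandedness of the libraries was not given in the sources used here.

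Timeless (10:128232065-128252941, plus strand), whose product guards the fork together with TIPIN, also had lower means with VE822. It ran from 9.77 to 9.93 in WT untreated and from 9.52 to 9.90 in WT VE822, a difference of -0.14 ± 0.07 (adjusted p = 0.118). SETD2 KD untreated libraries ran from 9.91 to 10.08, and the 5 VE822 libraries had 9.68, 9.70, 9.76, 10.20 and 9.68. Replicate 4 of SETD2 KD VE822 was thus the highest of all 24 libraries, while the other 4 lay below every untreated library of that label. The difference was -0.20 ± 0.08 (adjusted p = 0.0677) with that library and -0.30 (adjusted p = 0.000458) without it, when the WT difference also passed (adjusted p = 0.0252). In the limma fit with library weights the WT difference was -0.14 (adjusted p = 0.0347) and the SETD2 KD difference -0.29 (adjusted p = 0.000109). Replicate 4 of SETD2 KD VE822 also had the highest endothelium list mean of all 24, 10.15 rlog against a group median of 8.76. The part of endothelium in the Timeless value was not tested.

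Most genes of chromosome 10, where Timeless lies, had lower values with VE822. The median difference of its 715 tested genes was -0.20 in the WT comparison, with 75.8% below 0, and -0.14 in the SETD2 KD comparison, with 74.4% below 0. The other chromosomes that hold members had medians between -0.0011 and 0.04 in the WT comparison. With the median of each chromosome removed in each library, the Timeless difference was 0.12 in the WT comparison (adjusted p = 0.0859) and -0.02 in the SETD2 KD comparison (adjusted p = 0.859). A lincRNA overlaps Timeless.

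Clspn (4:126556935-126593903, plus strand), the adaptor between ATR and CHK1, did not pass in tumours. Its values ran from 9.50 to 9.92 in WT untreated, 9.39 to 9.72 in WT VE822, 9.60 to 9.83 in SETD2 KD untreated and 9.41 to 9.76 in SETD2 KD VE822. The VE822 differences were -0.08 ± 0.07 and -0.09 ± 0.07 for the WT and SETD2 KD labels, with adjusted p of 0.383 and 0.441. The order of group means put both VE822 groups lowest, within the spread of the libraries.

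Among the sensors, Atr (9:95857597-95951781, plus strand), whose product VE822 inhibits, spread widely within each group and hardly between them. It ran from 8.90 to 9.25 in WT untreated, 8.78 to 9.32 in WT VE822, 8.86 to 9.35 in SETD2 KD untreated and 8.98 to 9.31 in SETD2 KD VE822. The VE822 differences were -0.06 ± 0.09 and 0.09 ± 0.09, with 95% intervals from -0.23 to 0.12 and from -0.10 to 0.28. Its within-group standard deviation of 0.16 exceeded the range of 0.11 between the 4 group means. Antisense transcripts are annotated over Atr.

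Topbp1 (9:103305215-103350428, plus strand) and Etaa1 (11:17938756-17953875, minus strand), the genes of the ATR activators, differed with VE822 by at most 0.09 in rlog. Topbp1 ran from 11.65 to 11.80 in WT untreated and from 11.47 to 11.81 in WT VE822, and from 11.67 to 11.80 and 11.67 to 11.98 in the corresponding SETD2 KD groups. Etaa1 ran from 8.35 to 8.63 in WT untreated, 8.26 to 8.59 in WT VE822, 8.32 to 8.63 in SETD2 KD untreated and 8.40 to 8.66 in SETD2 KD VE822. Groups overlapped for both genes, and adjusted p lay between 0.296 and 0.83 for these 4 differences.

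Rad17 (13:100617164-100651051, minus strand), the clamp loader subunit gene, was the steadiest of the 9 members tested, with a range of 0.35 over all 24 libraries and of 0.04 between group means. Its VE822 differences were -0.01 ± 0.05 and 0.04 ± 0.06. Ak6 overlaps it on the opposite strand. Atrip (9:109057933-109074124, minus strand), the gene of the ATR partner, lay between 1.33 and 1.58 rlog in every library and was not tested. Trex1, a nuclease gene on the same strand that lies wholly within the annotated span of Atrip, is listed at 0 in all 24 libraries. TREX1 had 0 recovered counts in every 786-O library as well. How reads of the shared span were assigned was not given in the sources used here. Whether the low Atrip value reflects little transcript was not tested. Atrip lies 1.47 Mb from Setd2.

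Comparing the genotype labels, 0 of 9 members differed between SETD2 KD and WT without treatment, as did 0.0% of all genes, although 512 of 15916 genes had an unadjusted p under 0.05. Timeless had the largest difference of the members, 0.15 ± 0.07 (unadjusted p = 0.0423, adjusted p = 1). Under VE822 0 of 9 members differed between the labels, against 0.0126% of all genes (2 genes, with 2031 at an unadjusted p under 0.05), and Topbp1 differed by 0.14 ± 0.06 (adjusted p = 0.333). The interaction passed for 0 of 9 members and 0.0% of all genes, with 1452 genes at an unadjusted p under 0.05. Among the members' interaction terms Chek1 had the largest, 0.18, with a 95% interval from -0.08 to 0.44. Because the 4 groups enter several of these comparisons, their values are not independent.

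In 786-O cells the CHK1 inhibitor was accompanied by a rise of CDC25A and falls of CLSPN, CHEK1 and RAD17, 4 of 10 members against 13.2% of all genes tested (7.05% higher and 6.16% lower). The median difference of the 10 members was -0.29 on the variance-stabilised log2 scale, and that of all genes was 0.08. In 9 of the 10 genes both LY libraries lay on one side of both untreated libraries, 3 higher and 6 lower, and 52.4% of all genes showed such a gap. All 10 members had a mean of at least 5 on that scale, and of the 12731 genes with such a mean 27.1% passed in the same fit. When only those genes were fitted, 8 of 10 members and 48.9% of the genes passed, so the members' share depends on which genes it is read against. The main fit left out the pairing by experiment number. With that number as a replicate block, 6 of 10 members passed, against 19% of all genes. The 2 genes gained were ETAA1 and TIMELESS. A fit without a mean-variance trend called 0 of 10 members and 0 genes of the whole table. With any 1 of the 4 libraries left out, a single residual degree of freedom remained and 0 of 10 members passed, which says nothing about stability. The differences then ran from 0.64 to 0.79 for CDC25A, from -0.91 to -0.74 for CLSPN, from -0.42 to -0.37 for CHEK1 and from -0.59 to -0.48 for RAD17.

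CDC25A had 1193 and 1077 recovered counts in the untreated libraries and 1561 and 1642 in the LY libraries of experiments 1 and 2. The LY libraries were the shallower ones, so normalised counts rose further, from 1096 ± 84 (SD, n = 2) to 1803 ± 105, which is 1.645-fold. The difference was 0.71 ± 0.10 on the variance-stabilised scale (SE, adjusted p = 0.0322). CDC25A thus rose in 786-O cells, as Cdc25a did in both VE822 comparisons in tumours, under another inhibitor, dose and time.

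CLSPN showed the largest called fall, from 1986 and 2256 counts in the untreated libraries to 1026 and 1020 with LY. Normalised counts went from 2048 ± 175 to 1151 ± 21, or 56.23% of the untreated level, and the difference was -0.82 ± 0.09 (adjusted p = 0.0261). CHEK1, the gene of the drug's target, had 1356 and 1348 counts untreated and 907 and 848 with LY, with little spread inside either group. It fell to 75.61% of the untreated level (-0.40 ± 0.07, adjusted p = 0.0461). RAD17 had 483 and 508 counts untreated and 307 and 275 with LY, 68.4% of the untreated level (-0.53 ± 0.09, adjusted p = 0.0472). It lost its call with quantile normalisation (-0.46, adjusted p = 0.0609).

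ETAA1 had the lowest level relative to untreated, 290 and 354 counts against 109 and 162 with LY, or 49.22%. Its difference of -0.996 ± 0.25 did not pass in the main fit (adjusted p = 0.0845) and passed with the block (adjusted p = 0.0197), since experiment 2 was higher than experiment 1 in both groups. It also passed without the block when only genes with a mean of at least 5 were fitted (adjusted p = 0.0107). TIMELESS had 3098 and 3424 counts untreated and 1864 and 2090 with LY, 70.74% of the untreated level. Its adjusted p was 0.0689 in the main fit and 0.0209 with the block, for a difference of -0.50 ± 0.11. TIMELESS also passed with quantile normalisation (adjusted p = 0.032) and in a voom fit of the recovered counts (0.0377). Among genes with a mean of at least 5 its adjusted p was 0.00971.

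ATR and ATRIP, the kinase and its partner, had higher means with LY without passing in the main fit or with the replicate block (adjusted p = 0.161 and 0.0978). Both passed in limma when only genes with a mean of at least 5 were fitted (adjusted p = 0.0442 and 0.0473), where 48.9% of the genes did. The values that follow are from the main fit. ATR had 1833 and 1585 counts untreated and 1772 and 2161 with LY, a 1.343-fold difference in normalised counts (adjusted p = 0.18). For ATRIP the counts were 451 and 418 untreated and 475 and 493 with LY, 1.299-fold (adjusted p = 0.0866). WEE1 had 1093 and 1043 counts untreated and 838 and 781 with LY, 88.3% of the untreated level (adjusted p = 0.224). TOPBP1 was the member whose groups overlapped, with 2929 and 3113 counts untreated and 2123 and 2564 with LY, or 90.57% (adjusted p = 0.452).

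**Figure D4:**
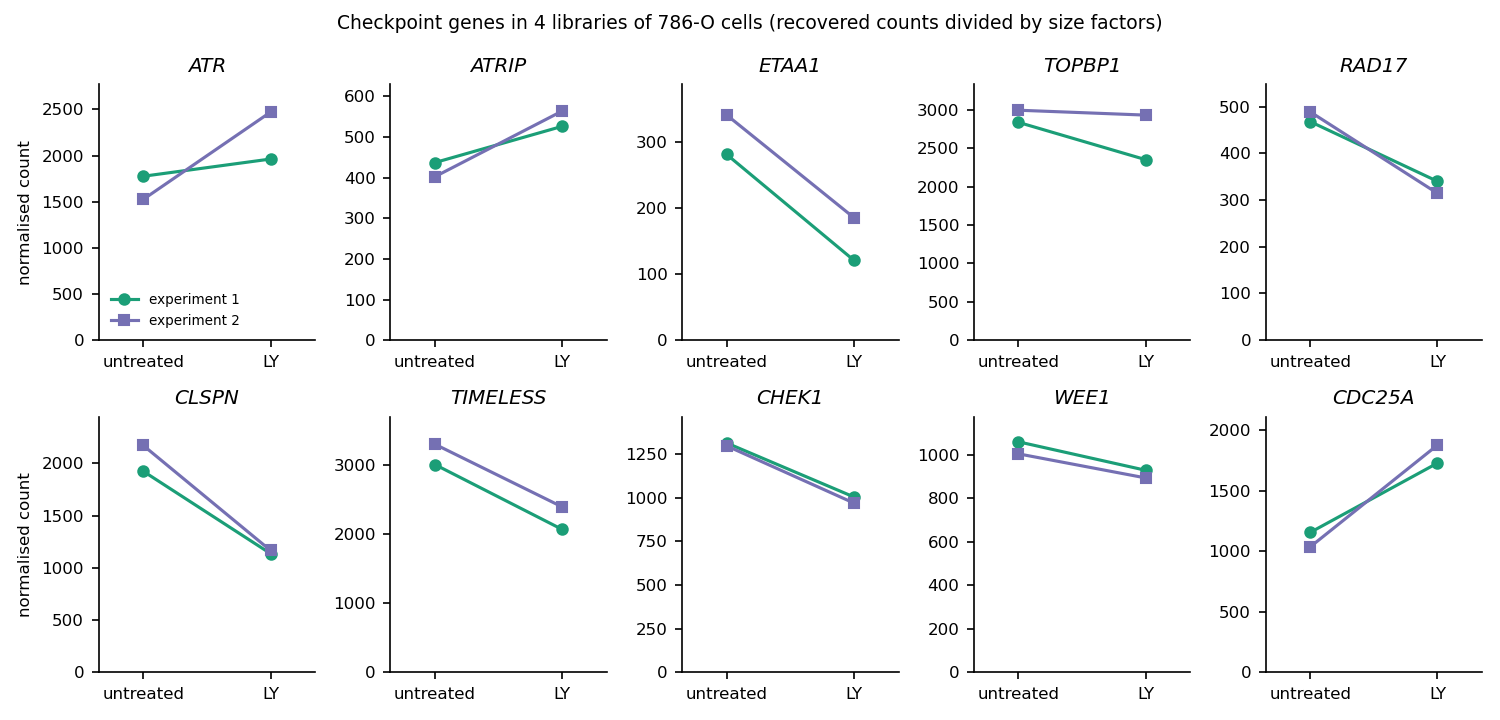
Normalised counts (recovered counts divided by the size factor, vertical axes from 0) of the 10 genes in untreated and LY-treated 786-O cells; circles and squares are experiments 1 and 2, and lines join libraries of the same experiment. CDC25A, ATR and ATRIP are higher with LY in both experiments, the other 7 genes are lower, and the TOPBP1 groups overlap.

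The other genes of the pathway were followed in 6 lists. Their counts stand against 17.2% of all genes higher and 17.5% lower in WT VE822. The shares were 10.6% and 11.6% in SETD2 KD VE822, and 7.05% and 6.16% in 786-O cells. Of the 12731 human genes with a mean of at least 5, 27.1% passed in the same fit, in either direction. The reading of the 786-O list counts thus depends on which genes they are set against. In the clamp and its loader (10 genes, 9 tested in mouse) 2 rose and 0 fell in WT VE822. They were Rhno1 (0.25 ± 0.07), the RAD9-RAD1-HUS1 interactor gene, and the replication factor C subunit gene Rfc5 (0.20 ± 0.06). None changed under the SETD2 KD label at the threshold, and in 786-O cells 1 of 10 fell, RFC4, by 1.25 ± 0.08 on the variance-stabilised scale. The median differences were 0.03, -0.02 and -0.12. Without the muscle-rich libraries 1 rose in WT VE822, Rfc5.

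Among 10 genes of single-stranded DNA and fork protection, 2 fell in WT VE822, Wdhd1 (-0.34 ± 0.07) and Zranb3 (-0.34 ± 0.11). Under the SETD2 KD label 1 rose and 2 fell, and the falls included Tipin (-0.23 ± 0.06), the gene of the TIMELESS partner. In 786-O cells TIPIN rose by 0.73 ± 0.09 while DONSON, HLTF and RPA1 fell, and TIMELESS itself had the lower values given above. The list medians were -0.02, -0.10 and -0.37. Without the muscle-rich libraries the WT counts were 1 rise and 1 fall.

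Of 12 genes that set the activity of cyclin-dependent kinases, 5 rose and 1 fell in WT VE822. The cyclin E gene Ccne1 rose by 0.42 ± 0.06, Pkmyt1, which encodes a kinase related to WEE1, by 0.25 ± 0.06, and Cdk2 fell (-0.35 ± 0.05). Under the SETD2 KD label Ccne1 rose (0.25 ± 0.06) and Cdk2 and Cdk1 fell. In 786-O cells AURKA rose (0.82 ± 0.07) and CCNA2, CDK1 and CDK2 fell, with a difference of -1.63 for CCNA2, the cyclin A gene, on the variance-stabilised scale. The medians were 0.14, 0.09 and -0.12. Without the muscle-rich libraries 3 rose and 1 fell in the WT comparison, Ccne1, Pkmyt1 and Cdk2 among them.

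The 9 genes that control CLSPN and CHK1 turnover, of which Usp29 was not tested in mouse, had 3 falls and 0 rises in each of the 3 comparisons. In these 17.5%, 11.6% and 6.16% of all genes fell, and 27.1% of human genes with a mean of at least 5 passed in either direction. Fzr1, an activator of the anaphase-promoting complex, fell in both mouse comparisons (-0.14 ± 0.04 and -0.18 ± 0.04). The gene of the ubiquitin ligase subunit BTRC fell under the SETD2 KD label (-0.34 ± 0.08) and in 786-O cells (-1.18 ± 0.08). Medians were -0.12, -0.17 and -0.15, and without the muscle-rich libraries 2 genes, Ddb1 and Fzr1, fell in WT VE822.

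Of 10 genes of the parallel kinases and double-strand break sensing, 5 fell and 0 rose in WT VE822, against 17.5% of all genes lower. They included Prkdc (-0.52 ± 0.09), Atm (-0.40 ± 0.10), Mre11a (-0.20 ± 0.04) and Rad50 (-0.20 ± 0.07), and the list median was -0.20. Under the SETD2 KD label 1 fell, Mre11a (-0.17 ± 0.05), with a median of -0.06. Without the 4 libraries high in muscle RNA 2 of these 10 genes fell in WT VE822, Prkdc and Mre11a, with a median of -0.10. In 786-O cells CHEK2, the gene of the kinase that ATM activates, fell by 1.52 ± 0.10 and BRCA1 by 1.12 ± 0.20, and the median was -0.26. ATR stability and substrate genes had 1 rise and 4 falls in WT VE822, 1 and 1 under the SETD2 KD label, and 0 and 3 in 786-O cells. Telo2, whose product stabilises ATR and related kinases, rose in both mouse comparisons (0.36 ± 0.08 and 0.30 ± 0.09), and FANCD2 fell in 786-O cells by 1.47 ± 0.15. The medians of that list were -0.02, -0.09 and -0.36, and without the muscle-rich libraries 1 rose and 2 fell in WT VE822.

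Several members are transcribed in dividing cells, so their relation to 15 proliferation genes, none of them a member, was measured over the 24 mouse libraries after removal of group means. In 786-O cells 8 of these 15 genes fell and 1, MKI67, rose, with a median of -0.44. There 6.16% of all genes fell and 7.05% rose, and 27.1% of those with a mean of at least 5 passed. A relation of the members to these genes in 786-O cells was not tested. In tumours 2 rose and 2 fell in WT VE822, where 17.2% of all genes rose and 17.5% fell. In SETD2 KD VE822 0 rose and 5 fell, where 10.6% of all genes rose and 11.6% fell. The medians were -0.03 and -0.06. Chek1 (r = 0.616, rho = 0.629), Etaa1 (r = 0.632, rho = 0.488), Clspn (r = 0.547, rho = 0.573) and Topbp1 (r = 0.532, rho = 0.517) followed the list mean within groups. Adjusted over the 9 members, the permutation p of r was 0.00612, 0.00823, 0.0176 and 0.00966 for these genes in that order, and that of rho was 0.0144, 0.047, 0.0269 and 0.0316 (two-sided, 100000 resamples within groups). The unadjusted permutation p of r was 0.00068, 0.00183, 0.00781 and 0.00322, and that of rho 0.0016, 0.0209, 0.00597 and 0.0105.

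Without the 2 libraries farthest from the median of the list mean, SETD2 KD VE822 replicate 1 and WT untreated replicate 6, r was 0.599 for Chek1, 0.614 for Etaa1 and 0.558 for Topbp1. For Clspn it dropped to 0.347, so that relation rests in part on those libraries. The Clspn relation also no longer passed with chromosome medians removed (r = 0.429, adjusted permutation p = 0.0947). With the list median in place of its mean 0 of 9 members passed, with r of 0.275, 0.168, 0.451 and 0.301 for Chek1, Etaa1, Clspn and Topbp1. The relation thus depends on which summary of the 15 genes is used. In WT VE822 the muscle-rich replicates 1, 2 and 4 had the lowest list means of the group (11.86, 11.84 and 11.90). They also had its lowest Chek1 values (8.44, 8.20 and 8.51). Its highest Etaa1 value was in replicate 4 (8.59) and its highest Clspn value in replicate 1 (9.72). The part of muscle RNA in the relation was not tested. Cdc25a (r = 0.404, adjusted p = 0.14), Wee1 (0.365, 0.102), Rad17 (0.157, 0.645), Timeless (0.10, 0.732) and Atr (-0.0678, 0.77) did not pass by the same permutation test.

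**Figure D5:**
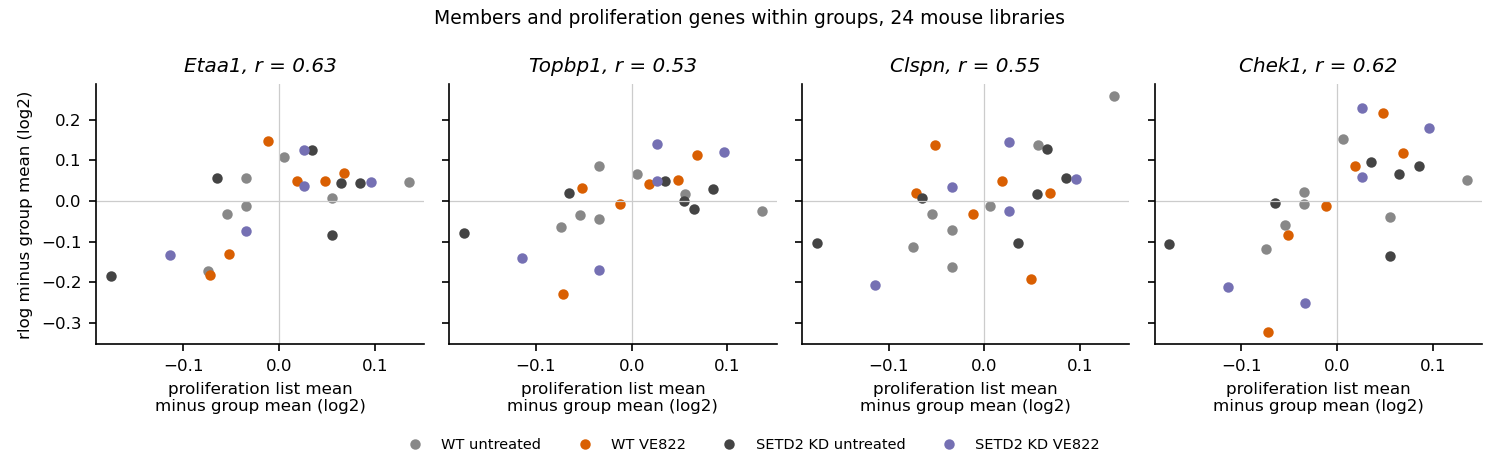
Values of Etaa1, Topbp1, Clspn and Chek1 in 24 mouse libraries against the mean of 15 proliferation genes, both in rlog (log2) with the group mean subtracted; colours are groups and r is Pearson's coefficient. Points rise from lower left to upper right in all 4 panels, with r from 0.53 to 0.63.

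Over the same 24 libraries, with group means left in, the genes with values most like those of Chek1 were Fam208a (Pearson r = 0.907), Tarbp1 (0.903) and Caprin1 (0.901). Those most like Atr were Arid1b (0.787), Ankrd17 (0.777) and Ubr3 (0.767), the lowest values of the 5 members examined. For Clspn they were Stil (0.848), Zc3h4 (0.823) and Gm43549 (0.821), and for Timeless Kansl1 (0.895), Tab2 (0.883) and Tyro3 (0.876). For Cdc25a, added after its values were seen, they were Ing5 (0.921), Plpp3 (0.921) and Spib (0.908), and with group means removed these fell to 0.666, 0.589 and 0.619. None of the 15 was itself a member. These coefficients describe libraries that share a normalisation and, in part, a group.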

How the data were processed

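RNA sequencing of 24 Renca tumour libraries and 4 libraries of 786-O cells was used, grouped by the sample labels. Per the submitters' processing notes the tools were DESeq2, HTSeq, TopHat and FastQC and the builds GRCm38 and hg38. Versions, annotation and strandedness were not given in the sources used here. The authors deposited log2 values: regularised log (rlog) for mouse, per the title of the table, and variance-stabilised for human, per the file headers. Mouse identifiers were named through GENCODE vM21, which gave names for 99.59% of the tested rows (935 of all 46078 had none).

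Human counts were recovered by inverting the variance-stabilising transform from the lowest 30 steps of each library (residual 2.9e-10, and 100% of values under 1000 counts whole within 0.1). They gave 23956007 and 23492424 counts untreated and 21447859 and 20834400 with LY. The chi-square per degree of freedom of the replicates' counts was 14.7 (untreated) and 14.9 (LY), so no library was a copy of another. The rlog values keep no counts. The smallest median difference between 2 mouse libraries of a group was 0.0754.

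Differences were fitted with limma 3.58.1 (R 4.3.3) on the deposited values (empirical Bayes with a mean-variance trend, 1 model of 4 group means for mouse), with Benjamini-Hochberg adjustment over all 15916 mouse genes with a mean rlog of at least 3 and all 29353 human genes that vary. The numbers of the human libraries pair them, since the design text speaks of separate experiments: deviations of same-numbered libraries correlated at 0.158 over all genes and 0.511 over the 12731 genes whose mean was at least 5. The main human fit did not hold this pairing, which entered only as the replicate block of an alternative fit. The fit was checked on simulated data. Correlations used permutation tests in Python 3.11.15 with SciPy 1.17.1. Alternatives covered filters, weights, normalisation, covariates and left-out libraries.

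The members and lists were chosen with earlier results of these data known. Named were all members, Setd2, at most 4 genes per list and comparison past the threshold with the largest difference, and the 3 genes most correlated with each of 4 members. Genes named for a count without the muscle-rich libraries, and those correlated with Cdc25a, were chosen after their values were seen.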

Additional observations from a re-analysis of the deposited data

Results flagged for a closer look

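Among 40 checks of a member's values within a mouse group, 2 libraries stood far from the others of their group. Chance flags about 1 in 20 such checks, so the number found is about what chance alone would give. Topbp1 was low in WT VE822 replicate 2, at 11.47 rlog against 11.69 in the nearest library, a gap of 0.664 of the range of the group and above Dixon's 95% critical value for 6 libraries. Timeless was high in SETD2 KD VE822 replicate 4, at 10.2 rlog against 9.76, a gap of 0.85 of the range and above the value for 5 libraries. The first library also held the lowest Chek1, Etaa1, Rad17 and Wee1 values of its group and a skeletal muscle list mean of 6.79. The second also held the highest Atr, Topbp1, Etaa1, Rad17, Clspn and Chek1 values of its group, but not the highest Wee1 or Cdc25a. It had the highest endothelium list mean of all 24 libraries (10.15 rlog, group median 8.76) and the highest red blood cell list mean of its group (7.70, group median 6.89).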

How the results depend on the processing

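Over 1817 pairs of a gene and an alternative, 1771 kept their side of the threshold, 30 lost a call, 16 gained one and 0 of the called differences changed sign; 61 differences that passed in neither fit did change sign. In WT VE822 against WT untreated 1 of 9 members, Cdc25a, passed with muscle, fibroblast and T cell list means as covariates and 1 without the muscle-rich libraries. There 3 passed with library weights, and 1 to 3 with single libraries left out (1 without WT VE822 replicate 2). In SETD2 KD VE822 against SETD2 KD untreated 2 passed with library weights, 2 with only the groups compared, 0 with the covariates, and 1 to 2 with single libraries left out (2 without SETD2 KD VE822 replicate 4). In the other mouse comparisons 0 members passed under every alternative run. Of 15916 genes tested, 5530 were called in WT VE822 against WT untreated, but 958 with the covariates and 3415 without the muscle-rich libraries. In that comparison 5942 were called with library weights and 6274 without SETD2 KD VE822 replicate 4. Those are the fits in which 3 members passed, so more of all genes passed there too. Under the SETD2 KD label 3540 genes were called, but 688 with the covariates and 5189 with library weights. Fewer than 3540 were called there with only the groups compared. Without treatment 0 genes differed between the genotype labels, and at most 11 (library weights), and under VE822 2 did, and 0 (only the groups compared) to 46 (without WT VE822 replicate 3). In 786-O cells 8 of 10 members passed among genes with a mean value of at least 5, where 48.9% of the genes did, and 7 of the 9 left with at least 8, where 56.0% did. There 0 passed without a variance trend, 6 with the replicate block and 0 to 0 with single libraries left out, when 1 residual degree of freedom remained. Of all human genes 6226 were called with a mean of at least 5, against 3878. With the list median, 0 members followed the proliferation list. The cause of these changes was not tested. The unknown mouse depth and the 2 libraries per human group limit what could be detected. Replicate numbers of the mouse libraries follow accession order and pair nothing.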
